A study of Mus musculus with 8 samples.

Results

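Strong single promoters are H3K4me3 peaks that lie within 1 kb of the start of a named gene, are the gene's 1 peak in that position, and held on average at least 80 reads per 1000000 reads in listed peaks (CPM) in the 2 KL libraries. The rule took the peaks that the authors had annotated as a promoter within 1 kb, kept the genes with exactly 1 such peak, left out the symbols of predicted and unnamed genes, and was selected on the KL level. Of the 35486 listed peaks, 17073 were annotated within 1 kb of a start, 14078 genes had exactly 1 such peak, and 11556 of these genes were named. Of the 11556 single promoters of named genes, 2184 reached the threshold, which is 18.9% of them and 6.15% of all listed peaks. The other 9372 are called weaker single promoters here. Because the KL level chose the members, it is given below as a description, and it also enters every comparison with KLG4m/m.

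Tumor cells with the surface pattern CD45-CD31-EpCAM+ had been sorted out of the lung tumors of mice, and their H3K4me3 was profiled with an assay that the paper calls CUT&Tag. As the paper's methods give the steps, an antibody brought a nuclease to the marked histone, and the DNA cut free was sequenced. "Tag" in the name stands for tagmentation, a step that these methods do not describe. The alleles of KL tumors included Lkb1fl/fl, in which Cre deletes Lkb1 (Stk11), and KLG4m/m tumors carried all of the KL alleles and Gpx4m/m, in which Cre turns on a second, tamoxifen-dependent recombinase that deletes part of Gpx4. Both groups had received intranasal Ad-Cre, a virus that expresses Cre in the airway cells it infects, and then tamoxifen, and were sampled 10 weeks after Ad-Cre. KL replicates 1 and 2 and KLG4m/m replicates 3 and 4 were compared, with 2 libraries in each group. The labels give neither the age nor the sex of the mice and do not say which library came from which mouse. The paper's figure legend for these data gives 2 mice in each group, whereas its methods can be read as 3 mice in all. On the second reading some of the 4 libraries share a mouse. SDs and p-values measure the spread between libraries. The H3K27ac libraries were not analysed here.

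H3K4me3 is a mark of active and poised gene starts. It is laid down by the SET1 and MLL methyltransferase complexes, which are drawn to unmethylated CpG-rich DNA and to initiating RNA polymerase, and it is read by proteins with PHD fingers, such as the TFIID subunit TAF3 and the ING family. Genes that every cell uses, for energy, protein synthesis and DNA upkeep, commonly have 1 CpG-rich promoter with a high and steady level of the mark.

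The sequence before the start was read for the members that the results below turn on. RefSeq promoter windows on GRCm38.p6, which hold 250 bases before and 50 bases after an annotated start, were found for 1821 of the 2184 members (83.4%), 1782 by gene symbol and 39 by transcript. The letters of 8 motifs were searched on both strands, and no motif contains another: the GC box GGGCGG, the CCAAT box CCAAT, the ETS core CCGGAAG, the NRF1 core GCATGCGC, the YY1 core AAGATGGC, the CRE TGACGTCA, the E-box CACGTG and the TATA box TATAAA. The lines hold the 200 bases just before the start, 5′ to 3′, with motif matches in capitals. They are the first 3 members with a single window among the members with the highest KL level (Exosc1, Aco1, Narf), among the largest rises (Kif11, Apex1, Pign) and among the largest falls (Dbf4, Tbc1d20, Ing5) in KLG4m/m. A match says that the letters are there, not that a factor was bound, and the RefSeq start need not be the start that the peak lies over.
Exosc1, chr19:41933315-41933514, minus strand: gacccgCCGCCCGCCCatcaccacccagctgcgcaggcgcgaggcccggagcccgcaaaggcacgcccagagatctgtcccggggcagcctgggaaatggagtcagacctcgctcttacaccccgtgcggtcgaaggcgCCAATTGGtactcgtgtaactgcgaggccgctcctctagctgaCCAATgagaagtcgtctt
Aco1, chr4:40143065-40143264, plus strand: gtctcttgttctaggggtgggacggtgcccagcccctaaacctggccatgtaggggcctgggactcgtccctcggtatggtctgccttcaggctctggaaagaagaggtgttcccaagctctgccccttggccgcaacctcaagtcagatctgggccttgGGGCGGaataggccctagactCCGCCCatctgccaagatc
Narf, chr11:121237036-121237235, plus strand: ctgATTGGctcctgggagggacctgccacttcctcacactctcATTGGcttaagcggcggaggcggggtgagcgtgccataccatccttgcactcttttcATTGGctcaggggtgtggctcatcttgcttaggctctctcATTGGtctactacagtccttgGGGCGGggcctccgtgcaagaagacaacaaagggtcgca
Kif11, chr19:37376182-37376381, plus strand: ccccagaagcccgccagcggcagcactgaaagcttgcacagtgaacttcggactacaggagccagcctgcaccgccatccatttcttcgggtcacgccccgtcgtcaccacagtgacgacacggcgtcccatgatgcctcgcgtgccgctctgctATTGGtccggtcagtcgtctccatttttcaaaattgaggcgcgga
Apex1, chr14:50924749-50924948, plus strand: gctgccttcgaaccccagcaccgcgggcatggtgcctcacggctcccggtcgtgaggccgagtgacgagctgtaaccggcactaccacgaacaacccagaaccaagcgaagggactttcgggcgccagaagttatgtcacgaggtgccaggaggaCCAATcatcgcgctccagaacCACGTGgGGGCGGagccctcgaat
Pign, chr1:105663677-105663876, minus strand: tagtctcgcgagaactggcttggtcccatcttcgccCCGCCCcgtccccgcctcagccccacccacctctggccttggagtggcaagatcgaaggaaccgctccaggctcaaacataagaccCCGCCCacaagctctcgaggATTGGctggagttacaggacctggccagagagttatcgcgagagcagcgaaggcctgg
Dbf4, chr5:8422717-8422916, minus strand: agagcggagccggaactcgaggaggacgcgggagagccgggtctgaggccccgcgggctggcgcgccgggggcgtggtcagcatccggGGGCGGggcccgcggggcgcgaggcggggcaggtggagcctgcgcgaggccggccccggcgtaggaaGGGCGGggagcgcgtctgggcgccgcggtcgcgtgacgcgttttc
Tbc1d20, chr2:152293628-152293827, plus strand: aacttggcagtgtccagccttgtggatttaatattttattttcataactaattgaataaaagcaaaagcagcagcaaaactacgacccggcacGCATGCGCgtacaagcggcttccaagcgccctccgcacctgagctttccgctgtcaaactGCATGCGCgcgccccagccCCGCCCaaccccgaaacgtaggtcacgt
Ing5, chr1:93803765-93803964, plus strand: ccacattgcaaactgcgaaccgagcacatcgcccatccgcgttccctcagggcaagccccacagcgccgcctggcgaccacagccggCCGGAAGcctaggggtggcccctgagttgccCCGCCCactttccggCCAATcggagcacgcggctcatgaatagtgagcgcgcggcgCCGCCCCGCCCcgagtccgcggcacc

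These 9 promoters differed in base composition. The stretch before Dbf4 was the richest, with 80% G or C, 34 CpG and 2 GC boxes, and the stretch before Tbc1d20 the poorest, with 53% G or C, 16 CpG, 2 NRF1 cores and 1 GC box. Narf held 4 CCAAT boxes and Exosc1 held 3, whereas Aco1 held none and had 6 CpG. A CCAAT box began at position -45 in both Kif11 and Apex1, counted back from -1 at the base before the start, and it was the single match in Kif11, and Apex1 also held an E-box and a GC box. Ing5 held 3 GC boxes, 2 of which overlapped, with a CCAAT box and an ETS core.

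Over all 1821 members with a window, the median G or C content was 61.0% (quartiles 56.3 and 65.8), beside 52.8% over all 27025 genes with a window. The ratio of observed to expected CpG, which is near 1 where CpG has not been lost to methylation over evolution, had a median of 0.788 in the members and 0.39 in all genes. It was above 0.6 in 1514 members, which is 83.1%, against 35.5% of all genes. A GC box was in 69.3% of the members' windows and in 35.6% of all windows, and an ETS core in 23% and 9.07%. NRF1, YY1 and CRE letters were less common and likewise more often found in the members, at 6.93%, 5.65% and 4.87% against 2.76%, 2.85% and 1.82%. The TATA box went the other way, with 5.98% of the members against 14.2% of all genes. Where a gene had several windows, its values were averaged. The weaker single promoters were not compared in sequence, because windows were found for 75.5% of them.

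Within the members the CCAAT box, bound by NF-Y, followed the KL level. It was in 45.2% of windows of members at 80 to 100 CPM, in 49.5% at 100 to 120 CPM and in 61.0% of the 181 at 120 CPM or more, against 37.8% of all genes. The GC box did not move with the level (68.9%, 69.8% and 70.3%), and the CRE became rarer (5.6%, 4.35% and 1.57%). Base composition itself hardly followed the level among the members, with a Spearman correlation across 1821 promoters of -0.0385 for G or C content and -0.0781 for the CpG ratio. These promoters share the same libraries and are not independent.

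**Figure D1:**
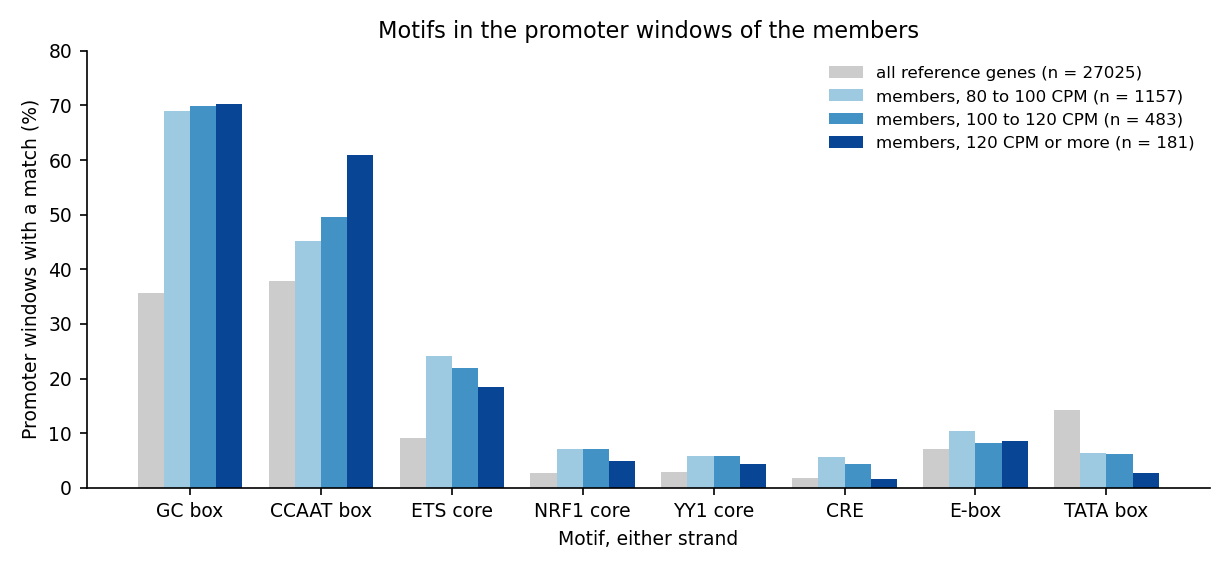
Share of promoter windows (y axis, percent) with a match to each of 8 motifs (x axis, either strand) in all 27025 reference genes (grey) and in members at 80 to 100, 100 to 120 and 120 CPM or more in KL (light to dark blue). The CCAAT box goes from 45.2% to 61.0% with the KL level, while the GC box stays between 68.9% and 70.3%.

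The KL levels that chose the members lay in a narrow band. The median was 93.8 CPM, and 839 members held 80 to 90 CPM, 567 held 90 to 100, 562 held 100 to 120, 185 held 120 to 150 and 31 held 150 or more. In single libraries the members ran from 71.6 CPM (248 reads) to 1000.2 CPM in KL replicate 1 and from 68.7 CPM (238 reads) to 987 CPM in KL replicate 2. Just inside the threshold stood Atic at 80.132 CPM, Far1 at 80.133 and Uchl3 at 80.133, and just outside it stood Brd8 at 79.991 and Ticrr at 79.990. For each of these 5 genes, 1 KL library lay above the threshold and the other below it. Over the whole group 123 members were below 80 CPM in KL replicate 1 and 152 in KL replicate 2.

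The highest level belonged to Pisd-ps3, a pseudogene of phosphatidylserine decarboxylase on a contig with no chromosome, with 1000.2 and 987 CPM in KL and 942 and 969 CPM in KLG4m/m. Tmem254, a gene with near-identical copies in the mouse genome, followed with 261 and 260.4 CPM in KL and 301 and 299.9 CPM in KLG4m/m. Reads of repeated sequence can gather at 1 of its copies, so these 2 levels are uncertain, and both stand apart from the rest. The next 8 lay between 169 and 177 CPM in KL, and they were Exosc1, a subunit of the RNA exosome, Aco1, the cytosolic aconitase that doubles as an iron regulatory protein, Narf, a prelamin A binding protein, Msh3 of DNA mismatch repair, Rita1, a regulator of Notch signalling, Hmgb2, a chromatin protein, Rab40c, a small GTPase, and Usp5, a deubiquitinase. Their KLG4m/m means lay between 168 and 187 CPM, and none passed the test (adjusted p 0.302 to 0.993, edgeR).

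**Figure D2:**
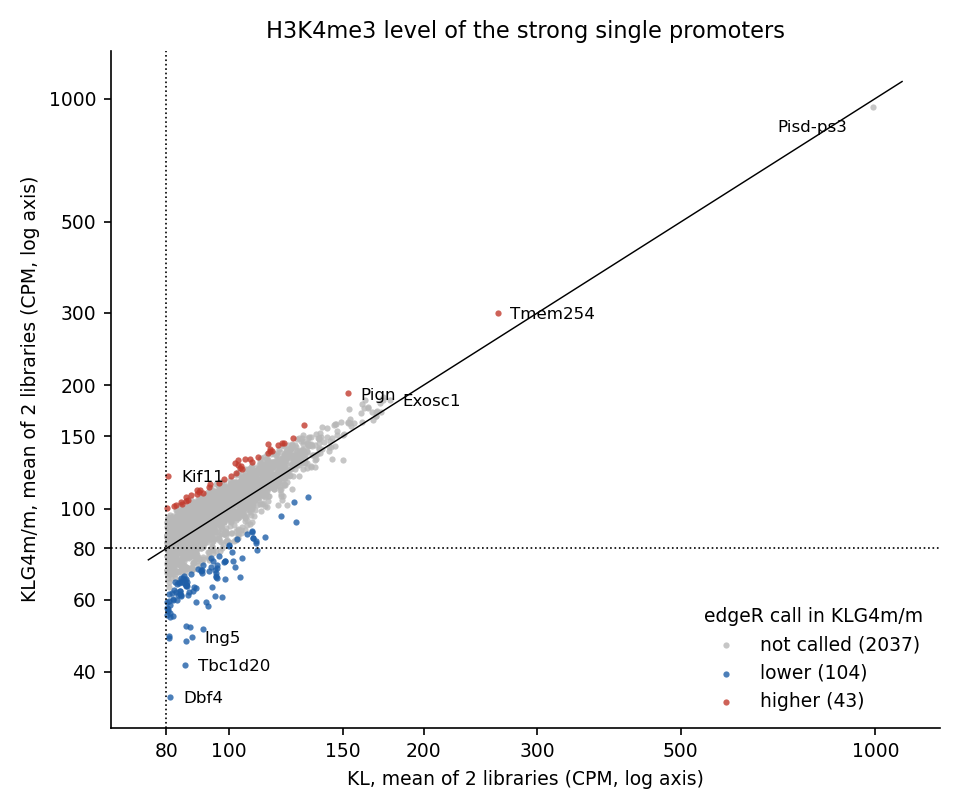
Mean H3K4me3 level of each of the 2184 members in KL (x axis) and KLG4m/m (y axis), in CPM on log axes, with the line of equal level and dotted lines at the threshold of 80 CPM. Red points were called higher (43), blue points lower (104) and grey points not called (2037) by edgeR, and the 3 largest falls, labelled, lie at 34.7 to 48.6 CPM in KLG4m/m.

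The members' peaks lay over a gene start more often than those of the weaker single promoters. A start lay inside the 400 bp window of 1808 members (82.8%), against 5761 of the weaker single promoters (61.5%), and of the other members 170 lay before and 206 after the start. No member's window overlapped another listed window, so the same reads were not counted for 2 members, but a peak between divergent genes is assigned to 1 of them. Another peak of the same gene was listed for 605 members (27.7%), against 34.1% of the weaker single promoters. Of 2120 members found by symbol in the RefSeq table, 2077 were protein-coding genes (98.0%, against 95.7% of the weaker), 20 were lncRNA genes and 9 were miRNA genes.

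Members came from every autosome, with 15.9% (chromosome 3) to 23.7% (chromosome 8) of the single promoters of a chromosome reaching the threshold, 2181 of 11156 (19.6%) over all autosomes. On the X chromosome 2 of 392 did (0.51%). They were Kdm6a, the H3K27 demethylase UTX, a gene with a Y-linked partner, and Yipf6, a Golgi membrane protein. Kdm6a held 80.01 and 85.5 CPM in KL and 88.6 and 94.9 CPM in KLG4m/m, and Yipf6 held 85.5 and 83.4 CPM in KL and 81.4 and 105 CPM in KLG4m/m. Neither passed the test (adjusted p 0.297 and 0.399, edgeR).

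The X chromosome was low as a whole rather than at its top alone. The median single promoter on X held 24.6 and 25.7 CPM in KL and 25.2 and 26.5 CPM in KLG4m/m, and on the autosomes 52.6 and 53 CPM in KL and 50.7 and 49.3 CPM in KLG4m/m. On X 79 single promoters reached 40 CPM in KL and 17 reached 60 CPM. All 4 libraries held reads in Y-linked peaks (301 to 344 reads over 10 listed peaks), among them the promoter of Eif2s3y with 97, 91, 63 and 75 reads. The sex of the mice is not in the labels, and its part in the low X levels was not tested.

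**Figure D3:**
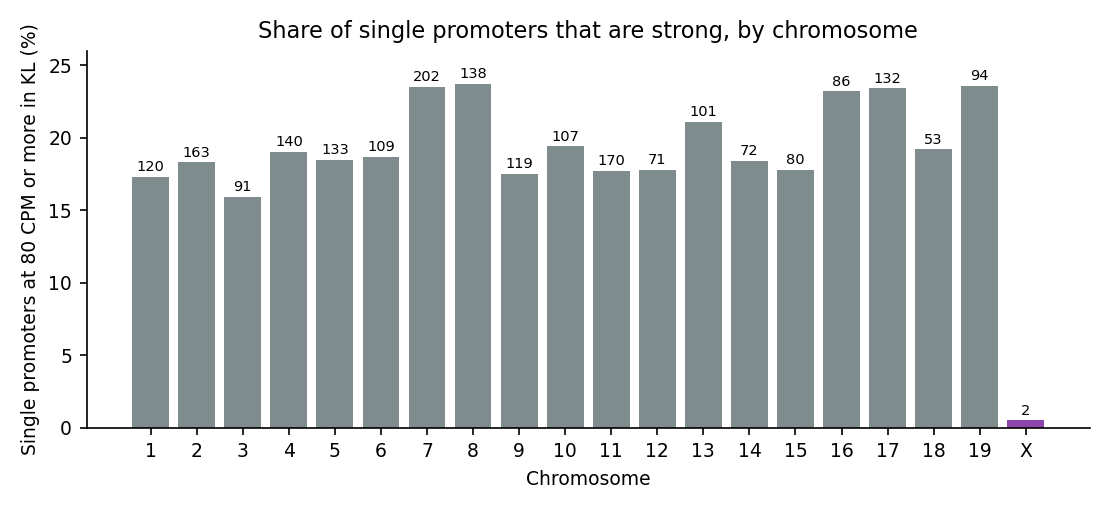
Percent of the single promoters of named genes on each chromosome that held at least 80 CPM in KL (y axis), with the number of members above each bar. The autosomes (grey) lie between 15.9% and 23.7% and the X chromosome (purple) at 0.51%, with 2 members.

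The choice of lists below was made with earlier results of these data known. Genes of the mitochondrion were well represented: 37 of the 68 single promoters of respiratory chain subunits (54.4%) and 29 of the 57 of mitochondrial ribosomal proteins (50.9%) were members, against 18.9% of all single promoters of named genes. Chaperones (11 of 22), autophagy factors (10 of 21), aminoacyl-tRNA synthetases (14 of 30), proteasome subunits (15 of 34), vacuolar ATPase subunits (7 of 17) and DNA replication factors (15 of 37) came next, with shares of 40.5% to 50.0%. Cytosolic ribosomal proteins (17 of 59) and translation factors (17 of 59) each gave 28.8%. Solute carriers (26 of 188, 13.8%) and ferroptosis and antioxidant genes (3 of 24, 12.5%) were below the share of all. Markers of epithelium, macrophages, lymphocytes, endothelium and fibroblasts gave 0 members of 30 single promoters. The alveolar type 2 list gave 2 of 5.

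The libraries of a group lay close together at the members. Over the members, the log2 ratio of the 2 KL libraries had an SD of 0.119 and that of the 2 KLG4m/m libraries an SD of 0.134. The weaker single promoters were not set beside these values, because the rule chose the members for many reads and counting error is larger at fewer reads. The log2 fold change of KLG4m/m over KL had an SD of 0.164 over the members. The median member carried 327 and 325 reads in KL and 333 and 318 reads in KLG4m/m.

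Of all reads in listed peaks, the members held 21.7% and 21.4% in KL and 21.8% and 22.2% in KLG4m/m. The mean share was 21.5% ± 0.202 (SD, n = 2) in KL and 22.0% ± 0.277 (SD, n = 2) in KLG4m/m, a difference of 0.442 percentage points (exact two-sided permutation p = 0.333, the smallest that 2 against 2 libraries allow). The libraries did not overlap, but the size moved with the choice of members: it was 1.26 points when the KLG4m/m mean chose them, 0.464 when KL replicate 1 alone did and 0.405 when KL replicate 2 alone did. When KL replicate 1 chose them the groups did overlap, with 22.15% in that library and 22.13% in KLG4m/m replicate 3.

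Comparing KLG4m/m with KL asks which strong promoters carried more or less H3K4me3 after loss of Gpx4 in the tumor cells. By edgeR at an adjusted p under 0.05 over all 35486 peaks, 43 members were higher in KLG4m/m (1.97%) and 104 were lower (4.76%). Over all listed peaks 3.10% were called higher and 5.52% lower. The weaker single promoters gave 262 higher (2.80%) and 963 lower (10.3%). The changes at strong promoters were small: the median log2 fold change was 0.29 among the 43 and -0.41 among the 104. Of the called members, 1 rose (0.0458% of all members) and 14 fell (0.641%) by at least 1.5-fold. Over all listed peaks these shares were 2.01% and 3.92%. Over all members the median log2 fold change was 0.06 and 65.5% lay above 0, against medians of -0.02 over the weaker single promoters and 0.01 over all listed peaks.

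The count rested on both KLG4m/m libraries and on the scaling. Without KLG4m/m replicate 3 or without replicate 4, edgeR called 0 members and 0 of all listed peaks, although 205 members were higher and 152 lower at an unadjusted p under 0.05 without replicate 3, and 109 and 140 without replicate 4. All 147 called members kept their direction in both cases, in fits that reuse the libraries that called them. Centring each library on its median peak gave 60 higher and 88 lower. Quantile normalization with limma gave 3 higher and 93 lower and turned the median of the members to -0.01. DESeq2 gave 1 higher and 16 lower. How the members stood to all listed peaks also turned with these fits. After quantile normalization 4.26% of the members and 2.44% of all listed peaks were lower, and by DESeq2 0.733% and 0.705%, whereas the share of members was the smaller one in edgeR (4.76% and 5.52%). The share of members called higher was the smaller one in all 3 fits, with 0.137% and 1.37% after quantile normalization and 0.0458% and 0.093% by DESeq2.

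The split into higher and lower also depended on which libraries chose the members. When a KLG4m/m mean of at least 80 CPM chose them, 89 of 2347 were called higher and 15 lower, and when the mean of all 4 libraries did, 72 of 2235 were higher and 43 lower. When the library that chose the members was left out of the test, falls outnumbered rises. Of 2237 promoters at 80 CPM or more in KL replicate 1, 18 were higher (0.805%) and 60 lower (2.68%) in the other 3 libraries, where 1.98% of all listed peaks were higher and 4.11% lower. Of 2160 chosen by KL replicate 2, 9 were higher (0.417%) and 58 lower (2.69%), beside 1.36% and 2.81% of all listed peaks. In these fits KL is 1 library, assumed to vary like the KLG4m/m libraries. The shares of members called were below those of all listed peaks in all 4 cases, the last by the least.

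**Figure D4:**
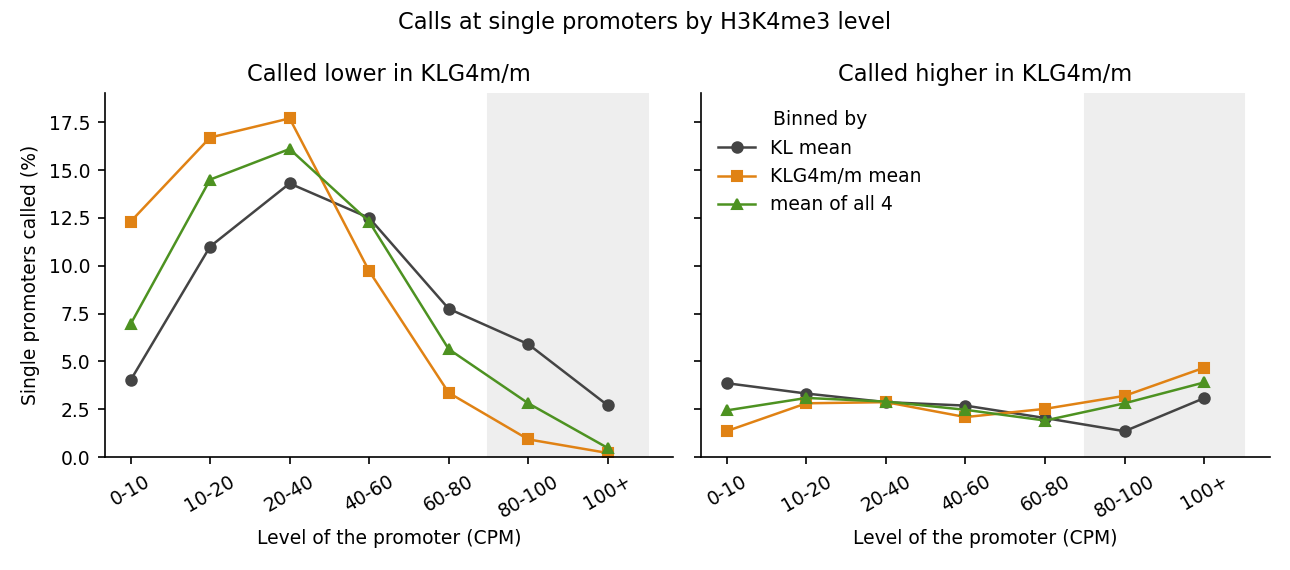
Percent of single promoters of named genes called lower (left) or higher (right) in KLG4m/m by edgeR (y axis) in bins of their level (x axis, CPM), binned by the KL mean, the KLG4m/m mean or the mean of all 4 libraries. The grey band marks 80 CPM or more, where 0.212% to 5.9% were called lower depending on the bin and on the libraries used for it, and the 20 to 40 CPM bin has 14.3% to 17.7%.

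From 20 CPM upward, calls of lower became less frequent with the level in each way of binning. Of single promoters at 20 to 40 CPM, 14.3% were called lower when binned by KL, 17.7% when binned by KLG4m/m and 16.1% when binned by all 4 libraries, and at 100 CPM or more these values were 2.7%, 0.212% and 0.473%. Calls of higher stayed between 1.35% and 4.67% in all bins from 10 CPM upward.

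In KLG4m/m the members' median was 97.2 CPM, and 262 members (12%) had a mean under 80 CPM. Of these, 180 stayed at 70 CPM or more, 24 were under 60 and 6 were under 50 CPM. Of the 262, 216 had held 80 to 90 CPM in KL, and 89 had been called lower. In the other direction, 425 weaker single promoters (4.53%) reached 80 CPM in KLG4m/m, and 46 of them had been called higher. The rule held all members at 80 CPM or more in KL and all weaker single promoters below it. Members could therefore cross the threshold only downward and weaker single promoters only upward, so the direction of these calls follows from the rule.

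The 3 largest falls were at Dbf4, Tbc1d20 and Ing5. Dbf4, the regulatory subunit of the CDC7 kinase that fires replication origins, went from 75.4 and 86.9 CPM in KL to 37.1 and 32.4 CPM in KLG4m/m (log2 fold change -1.21, SE 0.12, adjusted p = 3.6e-07, edgeR). Its peak lies at chr5:8472621-8473021 and that of Tbc1d20 at chr2:152135574-152135974 in the authors' table, whose positions are not those of GRCm38. Tbc1d20, a GTPase-activating protein for Rab proteins, went from 85.8 and 85.2 CPM to 40.5 and 42.5 CPM (log2 fold change -1.03, SE 0.11, adjusted p = 7.2e-07, edgeR). These were the 2 members with a fold change of at least 2. Ing5, a subunit of histone acetyltransferase complexes whose PHD finger reads H3K4me3, held 91.6 and 83.7 CPM in KL and 51.5 and 45.6 CPM in KLG4m/m (log2 fold change -0.84, SE 0.11).

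The other 7 of the 10 largest falls were also of at least 1.5-fold. Kremen1, a receptor for Dickkopf proteins of the Wnt pathway, had 79.1 and 92.1 CPM in KL and 46.6 and 48.7 CPM in KLG4m/m. Scaf4, which binds the tail of RNA polymerase II, had 91.8 and 90.1 CPM against 53.8 and 47.8 CPM. H2az2, a histone H2A.Z gene, had 82.6 and 78.8 CPM against 49.2 and 47.5 CPM. The mitochondrial members were Afg3l1, a protease of the inner membrane, and Ndufaf6, an assembly factor of complex I. Afg3l1 had 89.2 and 84.6 CPM against 53.3 and 49.6 CPM, and Ndufaf6 had 76.3 and 85.5 CPM against 43.4 and 54.2 CPM. Hgsnat, a lysosomal acetyltransferase that breaks down heparan sulfate, had 79.4 and 92.1 CPM against 55.3 and 48.1 CPM. Eif3j1, a factor of translation initiation with a near-identical copy in the mouse, had 95.3 and 99.9 CPM against 62.2 and 59.2 CPM. The log2 fold changes of these 7 ran from -0.67 to -0.84, and in none of the 10 did the groups overlap, which the rule for naming them required. Of the 10 falls, 6 were at 80 CPM or more in KL replicate 1 and 9 in KL replicate 2. Leaving out either KL library gave log2 fold changes of -0.607 to -1.313 over the 10. These fits reuse both KLG4m/m libraries that picked the falls, so they are no independent check.

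The largest rise was at Kif11, the kinesin that drives apart the poles of the mitotic spindle, with 76.0 and 85.2 CPM in KL and 120.2 and 120.2 CPM in KLG4m/m (log2 fold change 0.59, SE 0.09, adjusted p = 0.00012, edgeR). Its peak lies at chr19:37364540-37364940 in the authors' table, and it was the 1 member to rise by at least 1.5-fold. Dbf4 and Kif11, both genes of proliferating cells, moved in opposite directions. Neither stands in the lists of DNA replication (15 members) or of the kinetochore and spindle checkpoint (10 members), which had no member past the test. These lists therefore leave out promoters of such genes that were called.

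The other 9 of the 10 largest rises had log2 fold changes of 0.32 to 0.36. Bag4, a co-chaperone, had 103.7 and 103 CPM in KL and 129.7 and 134 CPM in KLG4m/m, and Apex1, the main endonuclease of base excision repair, had 107 and 97.3 CPM against 129 and 129 CPM. Fth1, the ferritin heavy chain that stores iron in a form that cannot feed lipid peroxidation, had 84.3 and 76.2 CPM against 101 and 100.5 CPM. Pign, an enzyme of GPI anchor synthesis, had the highest level of the 10, with 156 and 149.6 CPM against 187 and 195 CPM. Trappc2b, a TRAPP vesicle tethering gene, had 112 and 118 CPM against 138 and 149 CPM. Id2, an inhibitor of basic helix-loop-helix factors, had 109 and 103 CPM against 131 and 133 CPM. Glul, glutamine synthetase, had 75.1 and 96.4 CPM against 103 and 110.0 CPM, the widest gap between 2 KL libraries among the 10. Its log2 fold change was 0.15 without KL replicate 1 (adjusted p = 0.503, edgeR) and 0.52 without KL replicate 2 (adjusted p = 0.003, edgeR). B9d2, of the ciliary transition zone, had 89.0 and 89.5 CPM against 109.7 and 112 CPM, and Atad1, which pulls misplaced proteins from the mitochondrial outer membrane, had 88.7 and 85.7 CPM against 110.3 and 106 CPM. When the KL library that chose the members was left out of the test, fewer of these rises were called than in the fit of all 4 libraries. Of the 8 at 80 CPM or more in KL replicate 1, 5 were called on the other 3 libraries, and of the 9 at this level in KL replicate 2, 4 were. Leaving out either KL library gave log2 fold changes of 0.153 to 0.672 over the 10 rises. These fits reuse both KLG4m/m libraries that picked the rises, so they are no independent check.

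**Figure D5:**
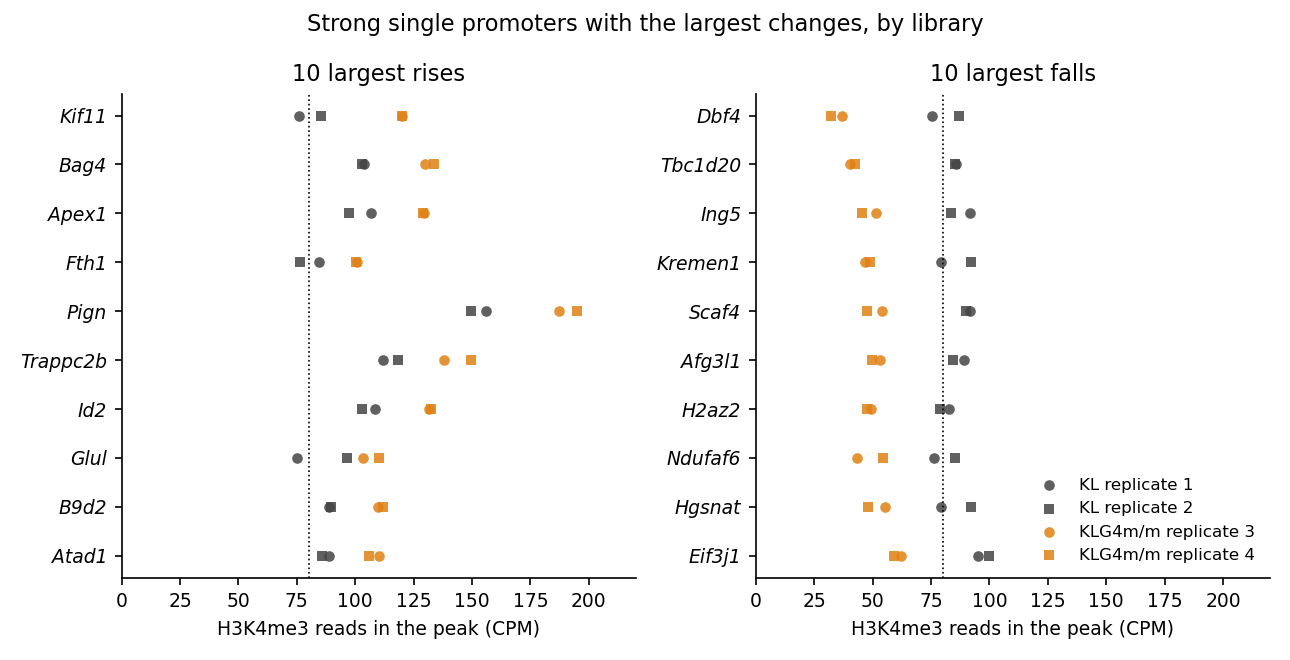
H3K4me3 level (x axis, CPM) of the 10 largest rises (left) and the 10 largest falls (right) among the members, 1 point per library, with KL in grey and KLG4m/m in orange and the threshold of 80 CPM dotted. The groups do not overlap at any of the 20 promoters, and Dbf4 and Tbc1d20 lie at 32.4 to 42.5 CPM in KLG4m/m.

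Few called members had another listed peak near them. Of the 104 lower members, 9 had another listed peak within 5 kb, and 1 of their 10 neighbours was also lower: B4galt2, 4120 bp from Atp6v0b, with 66 and 76 reads in KL and 26 and 24 reads in KLG4m/m. Beside Ing5, the promoter of Dtymk, at -2075 bp, held 234 and 245 reads in KL and 238 and 236 reads in KLG4m/m (adjusted p = 0.838, edgeR). Of the 43 higher members, 7 had a peak within 5 kb, and 1 of their 10 neighbours was also higher, a peak 3138 bp into the Id2 locus with 97 and 91 reads in KL and 125 and 126 reads in KLG4m/m. Over all listed peaks 5.52% were lower and 3.10% higher, and 10 neighbours are too few to tell from these shares. Other peaks assigned to the gene of a lower member, at any distance, were listed for 38 of the 104, and for 1 of these a peak was also lower and for 3 (Fhip2b, Gnai2 and Phf20) a peak was higher. Of the 18 higher members with such peaks, 3 had one that was also higher and 1 had one that was lower. Lower members were found on all autosomes, from 1 on chromosomes 12 and 18 to 12 on chromosome 8, and the 2 members on X and the 1 on an unplaced contig were not called.

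The lower members were the richest in G or C and had the highest CpG ratio. The median G or C content was 67.2% in the 86 lower members with a window, 62.3% in the 37 higher members and 60.7% in the 1698 not called. The CpG ratio had medians of 0.905, 0.761 and 0.784 in the same order. Across the 1821 members, the Spearman correlation of G or C content with the log2 fold change was -0.0973, a description over promoters that share 4 libraries. The part of base composition in the calls was not tested.

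By function, calls were scattered over the lists, and no list had more than 5 members lower or 1 higher. Over all members 4.76% were called lower and 1.97% higher, and over all listed peaks 5.52% and 3.10%. With so few calls, no list is set apart from these shares here. No member of the lists of cytosolic ribosomal proteins (17 members), mitochondrial ribosomal proteins (29) or proteasome subunits (15) passed the test, and their median log2 fold changes were 0.12, 0.07 and 0.08, beside 0.06 over all members. Of 37 respiratory chain members, 1 was lower: Ndufv2, a flavoprotein-arm subunit of complex I, with 93.0 and 103.9 CPM in KL and 57.6 and 76.7 CPM in KLG4m/m (log2 fold change -0.55, SE 0.11, adjusted p = 0.0022, edgeR). Without KLG4m/m replicate 3 its log2 fold change was -0.35, and without replicate 4 it was -0.76. Among 14 aminoacyl-tRNA synthetases the mitochondrial cysteine enzyme Cars2 was lower, with 107.7 and 102 CPM against 73.8 and 78.0 CPM. The splicing factor Sf3b2 had 109 and 111 CPM against 84.2 and 82.3 CPM, the ribosome assembly factor Wdr75 had 96.8 and 96.4 CPM against 72.7 and 80.8 CPM, and both were lower as the 1 called member of their list.

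Zinc finger genes of the Zfp family were the largest list, with 83 members of 312 single promoters. Of these, 5 were lower and 1 higher, beside 4.76% lower and 1.97% higher over all members. Zfp959 had 126.5 and 127 CPM in KL and 90.04 and 95.2 CPM in KLG4m/m, Zfp12 had 74.8 and 86.0 CPM against 59.3 and 53.01 CPM, and Zfp639 had 111 and 109 CPM against 81.6 and 83.2 CPM. Zfp39 was the 1 that rose, from 113 and 109 CPM to 139.5 and 127 CPM. The list as a whole had a median log2 fold change of 0.04.

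Of 26 solute carriers, 3 were lower and 1 higher, beside 4.76% lower and 1.97% higher over all members. The lower ones were Slc39a10, a zinc importer (90.4 and 87.2 CPM in KL, 59.6 and 68.4 CPM in KLG4m/m), Slc25a51, the mitochondrial NAD carrier (111 and 106.5 CPM, 84.8 and 84.5 CPM), and Slc30a9, a zinc transporter (93.3 and 94.4 CPM, 74.98 and 69.0 CPM). Slc29a2, a nucleoside transporter, was higher (102 and 105 CPM, 126 and 129 CPM). Single members also fell in the lists of vacuolar ATPase subunits (Atp6v0b), ubiquitin-conjugating enzymes (Ube2j2), and kinases and cyclins (Mapk9), with log2 fold changes of -0.36, -0.33 and -0.35. That of Mapk9 was -0.23 without KL replicate 2.

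Among the genes on which the study centres, Dgat2, which makes triacylglycerol, was a member. It held 102 and 110.0 CPM in KL and 105 and 98.3 CPM in KLG4m/m (log2 fold change -0.05, SE 0.09, adjusted p = 0.773, edgeR). This value is for the 400 bp window at the Dgat2 start alone. The paper reports a significant increase of H3K4me3 over the Dgat2 locus in KLG4m/m, from CUT&Tag and from ChIP-qPCR. Of the 7 members in the list of triacylglycerol synthesis and lipid droplet genes, 1 passed the test: Agpat1, which adds the second fatty acid to glycerol phosphate, with 82.3 and 83.4 CPM in KL and 103 and 101 CPM in KLG4m/m (log2 fold change 0.31, SE 0.09, adjusted p = 0.026, edgeR). The call was kept in 7 of 13 alternatives and lost by DESeq2, after quantile normalization and without any 1 of the 4 libraries. Of the 3 members in the ferroptosis and antioxidant list, Fth1 passed it. The Fth1 call was lost by DESeq2, after quantile normalization, and without KL replicate 2, KLG4m/m replicate 3 or KLG4m/m replicate 4. Over the 13 alternatives its log2 fold change ran from 0.265 to 0.408. Gpx4 itself was not a member, since its 1 promoter peak held 69.9 and 68.1 CPM in KL, and 88.0 and 92.8 CPM in KLG4m/m (adjusted p = 0.0085, edgeR). The deleted part of the gene does not include this promoter, so the peak does not check the deletion. KLG4m/m alone carries the knock-in at this locus, which includes a CAG promoter, and its part in the difference was not tested. Stk11 had 2 promoter peaks and did not enter.

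Dpy30, a shared subunit of the H3K4 methyltransferase complexes, was among the 104 lower members and is named after its values were seen. It held 116 and 112 CPM in KL and 92.4 and 78 CPM in KLG4m/m (log2 fold change -0.40, SE 0.09, adjusted p = 0.0061, edgeR). The other subunits of these complexes were not examined as a list, so these values describe the Dpy30 promoter alone.

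Etv5, a transcription factor of alveolar type 2 cells, was lower, with 80.9 and 87.8 CPM in KL and 64.3 and 58.3 CPM in KLG4m/m (log2 fold change -0.45, SE 0.10, adjusted p = 0.0055, edgeR). Sums over the markers of several cell types did not overlap between the groups in the whole table. Few single peaks were called outside the alveolar type 2 list. These sums were not tested, and an exact permutation test of 2 against 2 libraries cannot go below a two-sided p of 0.333. Summed over the peaks of 8 alveolar type 2 markers of 10, the level was 355 and 374 CPM in KL and 273 and 279 CPM in KLG4m/m, and over 9 epithelial markers of 10 it was 447 and 444 CPM against 397 and 401 CPM. Over 9 macrophage markers of 10 the sums were 420.0 and 425 CPM against 519 and 508 CPM, and over 9 lymphocyte markers of 10 they were 248 and 230.0 CPM against 307 and 302 CPM, although the gate removes CD45+ cells. The sums overlapped between the groups for endothelial markers (289 and 328 CPM against 305 and 317 CPM) and for fibroblast markers, of which 4 of 8 had a peak (74.2 and 80.8 CPM against 80.5 and 82.3 CPM). Of the marker peaks, 5 of 14 were called lower in the alveolar type 2 list, 1 of 22 in the epithelial list and 1 of 22 in the endothelial list. Called higher were 2 of 26 in the macrophage list, 2 of 17 in the lymphocyte list and 1 of 6 in the fibroblast list. Over all listed peaks 5.52% were called lower and 3.10% higher. The surfactant gene Sftpc and Slc34a2, defining markers of alveolar type 2 cells, had no listed peak. The part of the cell mixture in the members' differences was not tested, and fewer cells with the mark and less mark per cell cannot be told apart in bulk libraries.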

How the data were processed

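The authors trimmed the reads (Trim Galore 0.6.10), mapped them (BWA 0.7.15), removed mitochondrial, low-quality and duplicate reads (Picard 2.17.3), called peaks (MACS2 2.2.7.1) and assigned them to genes (HOMER 4.11.1), with versions from the submitters' processing notes. The deposited counts are whole reads per peak and library, and the deposited CPM are these counts scaled to 1000000 reads in the listed peaks, so a change shared evenly by the whole table is not visible. The table also holds the authors' own comparison, which was not used. The libraries held 3244495 to 3463731 reads in peaks.

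Counts of all 35486 peaks were tested with edgeR 4.0.16 (quasi-likelihood test, TMM scaling, no covariate or filter, Benjamini-Hochberg over all peaks, R 4.3.3). In simulated data the fit recovered 38% of 50 members changed 1.25-fold and 100% of 50 changed 1.5-fold, so smaller changes can be missed. SEs are the log2 fold change over the root of the F statistic. Named members are the 10 with the highest KL level, the 10 largest rises and falls past the threshold with no overlap between groups, 3 on each side of 80 CPM, up to 4 called members of each list (or its highest), and genes of the model. Members and lists were chosen with earlier results of these data known. Alternatives were limma 3.58.1, DESeq2 1.42.0, other scalings, pseudocounts, filters and choices of members, and each library left out. An allele of the model and a gene near the threshold are not reported here.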

Additional observations from a re-analysis of the deposited data

How the results depend on the processing

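The 2 groups hold 2 libraries each, and members at or near 80 CPM move in and out with the libraries that choose them. No paired analysis was possible because KL holds replicates 1 and 2 and KLG4m/m replicates 3 and 4, so the groups share no number. The median depth was 318 to 333 reads per member and library, which limits how small a change can be called.

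The main counts were 43 members higher and 104 lower, with a median log2 fold change of 0.055. Relative-log-expression factors, total reads, median centring, limma with 3 pseudocounts and the filter at 10 CPM kept both counts within 1.5 times of these. DESeq2 gave 1 and 16, quantile normalization with limma gave 3 higher and a median of -0.011, and an added 1.5-fold rule left 1 and 14. Of all listed peaks, that fold rule left 712 higher and 1390 lower. Leaving out 1 library gave 0 to 15 higher and 0 to 72 lower, with 0 of either without KLG4m/m replicate 3 or 4, and 7 and 61 without KL replicate 2. The causes were not tested. Choosing members by the KLG4m/m mean gave 89 and 15 with a median of 0.095, by all 4 libraries 72 and 43, by KL replicate 1 (tested on the other 3) 18 and 60, and by KL replicate 2 likewise 9 and 58. A threshold of 60 CPM gave 93 and 294, and one of 120 CPM gave 6 and 4. The difference in the share of reads was 0.442 percentage points in the main choice, 1.26 by the KLG4m/m mean and 0.918 by all 4 libraries.

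The 13 alternatives of the fit reuse the libraries that called the members, so a kept sign is no independent check. No named member of the 39 past the threshold changed sign in any, but Tmem254 had a log2 fold change of 0.0 under quantile normalization, against 0.215. DESeq2 kept 11 of them past the threshold, quantile normalization 25, and the fits without KL replicate 1 or 2 kept 27 and 21. Signs turned in 25 values of 13 members that had not passed it. Under quantile normalization the log2 fold changes were -0.089 at Exosc1, -0.023 at Aco1, -0.087 at Msh3, -0.125 at Hmgb2, -0.077 at Rab40c, -0.05 at Mrpl41, -0.027 at Med19 and -0.035 at Rrm2b. Median centring gave 0.018 at Usp5 and 0.003 at Cenpn, and the filter gave -0.007 at Msh3. Leaving out 1 library in turn gave -0.025 to 0.047 at Msh3, -0.033 to 0.113 at Hmgb2, -0.01 to 0.079 at Rab40c, -0.112 to 0.103 at Usp5, -0.103 to 0.006 at Dgat2, -0.061 to 0.027 at Cenpn, -0.129 to 0.097 at Atg101, -0.072 to 0.155 at Rrm2b and -0.169 to 0.057 at Far1. The last 100 bases of the promoter windows gave a median G or C content of 65.0% and a CpG ratio of 0.855 in the members.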
